A study of Homo sapiens with 4 samples.

Results

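Classical direct targets of miR-124 are mRNAs that this microRNA was shown to repress in other cell types. The set consists of 10 genes, LAMC1, ITGB1, VAMP3, IQGAP1, SLC16A1, RHOG, CDK6, CD164, SNAI2 and ROCK1, and every probe set that the platform annotation assigns to 1 of them alone was taken. In this way 33 probe sets of 9 genes were found among 49293 probe sets of 18244 genes. SLC16A1, the lactate transporter MCT1, has no probe set in the annotation used and is not analysed here. Another 2 probe sets carry both ROCK1 and the pseudogene ROCK1P1 as symbols and were kept out of the set.

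MicroRNAs guide the silencing complex to mRNAs that pair with their seed, and the bound mRNA is degraded or translated less. miR-124 is abundant in neurons, where it holds down mRNAs of non-neuronal cells, among them genes of adhesion, the cytoskeleton and membrane traffic. The study describes miR-124 as silenced in cutaneous T-cell lymphoma cells and asked what ectopic miR-124 does to their transcriptome. The arrays measure mRNA, so that repression of translation alone would not be visible, and the mature microRNA itself is not among the values used here.

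RNA of SeAx, a Sézary syndrome cell line, was hybridized to 4 Affymetrix PrimeView arrays. The control condition had 2 arrays, labelled only as control, and the text of the study calls these cells non-transduced. The miR-124 condition had 2 arrays of cells that carried a lentiviral vector encoding miR-124 and had been selected in puromycin, so vector and selection cannot be told apart from the microRNA. Whether the arrays of 1 condition came from separate cultures is not given in the sources used here. P-values and confidence intervals may therefore measure technical spread only. Each value is the log2 signal of a probe set after background correction, quantile normalization and RMA summarization by the authors. Array medians were 7.27 to 7.31, and the 23 background probe sets had means of 5.18 to 5.23. Of the 8 T-cell markers, CD3D, CD3G and CD2 were bright (10.6 to 12.1), whereas CD3E, CD4, LCK, CD28 and CD5 lay between 5.33 and 6.61. Of 14 markers of other cell types, KRT14, KRT1, LYZ and DCN lay under the background, and COL3A1, CSF1R, KRT10 and COL1A1 were at 8.67 or above. No marker passed the threshold described next, and CD3E had the lowest unadjusted p among them (log2 fold change 0.41).

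No probe set of the 9 genes passed the threshold of the study, an unadjusted p under 0.05 in limma together with a fold change above 1.5 in either direction. Of all probe sets 91 (0.185%) passed it, and of all genes, each on its brightest probe set, 28 (0.153%). The paper reports a far larger number of differentially expressed genes at the same limits, and the reason for this gap was not tested. The absence of the members is therefore a result of the fit used here and not of the selection made in the paper. The brightest probe sets of ROCK1, ITGB1, CD164 and IQGAP1 were lower in both miR-124 arrays than in both control arrays, by 0.18 to 0.35 on the log2 scale. Those of RHOG, CDK6 and VAMP3 were higher on average, with overlapping conditions. LAMC1 and SNAI2 lay under the background. Among the 33 probe sets 19 were lower (57.6%), 13 higher and 1 equal in its means to within 1e-09. Of all probe sets 48.4% were lower. Among the 26 with both means above the background 14 were lower (53.8%), beside 48.8% of all such probe sets. The median log2 fold change of the 33 was -0.010, and it was 0.0047 over all probe sets. The smallest Benjamini-Hochberg adjusted p among the 33 was 0.875 in limma. With 2 arrays against 2, an exact two-sided permutation test cannot give a p under 0.333.

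**Figure D1:**
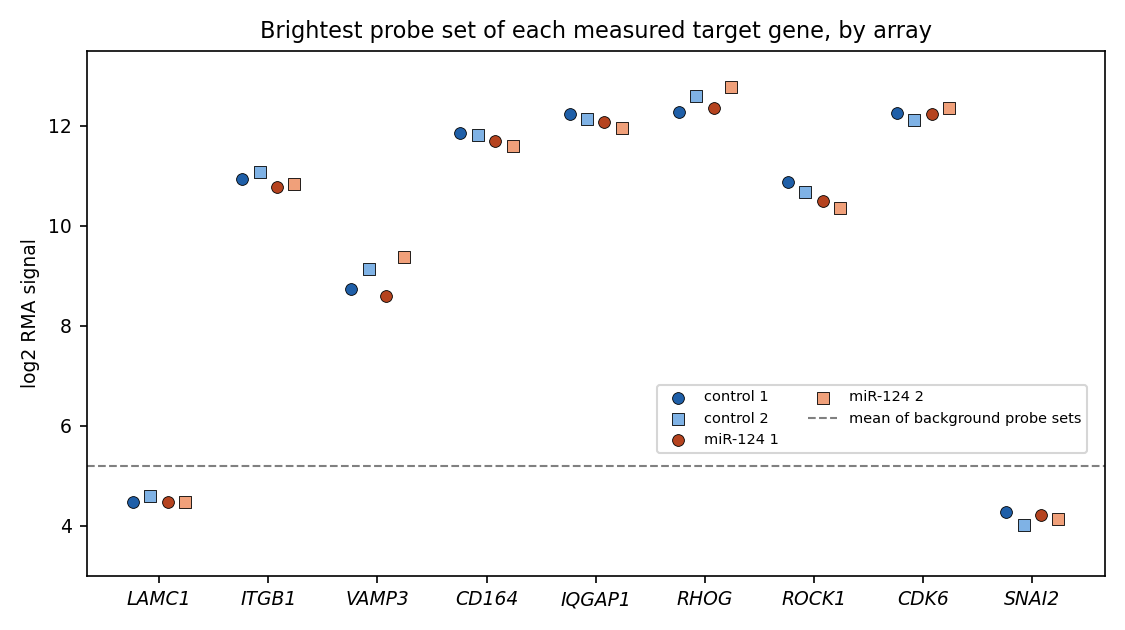
Log2 RMA signal of the brightest probe set of each measured target gene, 1 point per array, with circles for arrays numbered 1, squares for those numbered 2 and a dashed line at the mean of the background probe sets (5.20). The miR-124 points of ITGB1, CD164, IQGAP1 and ROCK1 lie below their control points, LAMC1 and SNAI2 lie below the dashed line, and VAMP3 and RHOG are higher on the arrays numbered 2.

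Among the genes of matrix and adhesion, LAMC1 encodes the gamma 1 chain of laminins, the cross-shaped proteins of basement membranes. Its brightest probe set (11762516_at) read 4.48 and 4.60 in control cells and 4.47 and 4.47 in miR-124-transduced cells. All 5 of its probe sets had means under the background in both conditions, with values from 3.25 to 4.60, so no fold is given and LAMC1 was not detectable as expressed here. Of the 8 other laminin chains on the arrays, LAMC3, another gamma chain, read 7.65 and 7.92 in control cells and 7.76 and 8.24 in miR-124-transduced cells.

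ITGB1 encodes the integrin beta 1 chain, which pairs with many alpha chains to bind matrix and vascular ligands. Its brightest probe set (11758276_s_at) read 10.93 and 11.08 in control cells and 10.77 and 10.84 in miR-124-transduced cells. Both miR-124 arrays were thus below both controls, and the log2 fold change was -0.20 (standard error 0.10, 95% confidence interval -0.46 to 0.06, unadjusted p = 0.101 from limma). The dimmest of its 5 probe sets lay under the background, the other 3 differed by -0.06 to 0.05, and the second brightest was higher on average, at 9.39 and 9.58 against 9.41 and 9.66. Among the alpha chains that pair with beta 1, ITGA4, the alpha chain of VLA-4 on lymphocytes, read 7.22 and 7.04 in control cells and 6.91 and 6.88 in miR-124-transduced cells. ITGA3, a laminin-binding alpha chain, read 8.04 and 8.06 against 8.26 and 8.44. These alpha chains were singled out after their values were seen. They did not overlap between the conditions and lay in opposite directions, with log2 fold changes of -0.24 and 0.30, and neither passed the threshold. Of the 12 alpha chains listed, 1 was lower without overlap (8.33%) and 3 were higher (25%), beside 15.5% and 18.7% of all genes. ITGB2 and ITGB7, the other leukocyte beta chains, differed by -0.02 and 0.03.

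Among the genes of membrane traffic, transport and the cell surface, VAMP3 encodes cellubrevin, a v-SNARE of recycling endosomes. Its brightest probe set (11716286_at) read 8.74 and 9.13 in control cells and 8.59 and 9.38 in miR-124-transduced cells, so the miR-124 arrays lay on both sides of the controls. The log2 fold change was 0.05 with an interval of -0.75 to 0.85, the widest of the 33 probe sets. Without control replicate 1 or without miR-124 replicate 2 the log2 fold change turned to -0.15 and -0.34. The other probe set of VAMP3 read 7.40 and 7.39 against 7.40 and 7.37, a log2 fold change of -0.010 with an interval of -0.23 to 0.21. VAMP2, the closest v-SNARE, read 9.30 and 9.82 in control cells and 9.50 and 10.01 in miR-124-transduced cells.

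CD164 encodes endolyn, a sialomucin of the cell surface and lysosomes, and had 8 probe sets, more than any other member. The brightest (11758686_s_at) read 11.86 and 11.81 in control cells and 11.70 and 11.59 in miR-124-transduced cells, a log2 fold change of -0.19 (standard error 0.09, interval -0.43 to 0.05). The second brightest, at 10.50 and 10.40 against 10.36 and 10.19, also lay lower in both miR-124 arrays. CD164 probe set 11715690_x_at, in contrast, lay higher in both, at 9.52 and 9.63 in control cells and 9.71 and 9.69 in miR-124-transduced cells. Over all 8, log2 fold changes ran from -0.20 to 0.12, with 4 probe sets lower, 3 higher and 1 with equal means. SLC16A1 itself was not measured, and its chaperone basigin (BSG) read 12.52 and 12.92 in control cells and 12.88 and 13.22 in miR-124-transduced cells, with overlap.

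Among the genes of the cytoskeleton, ROCK1, a kinase that RHOA activates to drive actomyosin contraction, differed most. Its brightest probe set (11739450_x_at) read 10.87 and 10.67 in control cells and 10.49 and 10.35 in miR-124-transduced cells. Both miR-124 arrays lay below both controls, and their mean was below that of the controls by a factor of 1.28 (log2 fold change of -0.35 with a standard error of 0.11, interval -0.66 to -0.05, unadjusted p = 0.0314 and adjusted p = 0.875 from limma). This was the only 1 of 33 probe sets with an unadjusted p under 0.05, a level that 4.73% of all probe sets and 4.46% of all genes reached. The other probe set of ROCK1 read 6.04 and 6.18 in control cells and 6.02 and 6.06 in miR-124-transduced cells, with overlap and a log2 fold change of -0.07. The probe sets shared with ROCK1P1 lay in opposite directions, 1 at 10.02 and 10.12 against 10.05 and 10.36 and the other at 9.09 and 8.97 against 8.92 and 8.67. The log2 fold changes of the probe sets annotated to ROCK1 alone thus differ in size, with overlapping intervals (-0.66 to -0.05 and -0.32 to 0.18). Those of the shared probe sets differ in direction, with intervals of -0.22 to 0.49 and -0.57 to 0.09. Whether the probe sets differ from each other was not tested. With control replicate 1 or 2 left out, the brightest probe set of ROCK1 was at -0.25 and -0.46. With miR-124 replicate 1 or 2 left out, it was at -0.42 and -0.29.

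ROCK2, the paralogous kinase, read 9.25 and 9.28 in control cells and 9.43 and 9.46 in miR-124-transduced cells, a log2 fold change of 0.18. It lay higher in both miR-124 arrays, opposite to ROCK1, and the difference between the kinases was not tested. RHOA, the GTPase upstream of both, read 12.23 and 12.06 against 12.05 and 11.86, lower on average, its higher miR-124 array just under the lower control. Neither ROCK2 nor RHOA passed the threshold.

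IQGAP1 encodes a scaffold that ties the GTPases CDC42 and RAC1 to actin. Its brightest probe set (11716767_at) read 12.24 and 12.14 in control cells and 12.07 and 11.95 in miR-124-transduced cells, a log2 fold change of -0.18 (standard error 0.10, interval -0.43 to 0.07, unadjusted p = 0.125 from limma). The dimmest of its 4 probe sets was also lower in both miR-124 arrays, with a log2 fold change of -0.16, at 10.68 and 10.61 against 10.54 and 10.44. The probe sets between them differed by 0.02 and 0.08 with overlap. Its family members IQGAP2 and IQGAP3 had log2 fold changes of 0.06 and 0.30, both with overlap.

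RHOG encodes a GTPase that activates RAC1 through ELMO and DOCK proteins. It read 12.28 and 12.59 in control cells and 12.36 and 12.77 in miR-124-transduced cells on its brighter probe set (11717636_s_at), and 11.54 and 11.91 against 11.68 and 12.06 on the other. Both probe sets were higher on average, by 0.13 and 0.15 on the log2 scale, with overlap between the conditions. The arrays numbered 2 were above those numbered 1 by 0.36 and 0.38, more than the difference between the conditions. Of its relatives RHOA, RHOB, RHOC and RHOH, named here after their values were seen, the last 3 were higher on the arrays numbered 2, by 0.59, 0.46 and 0.44, with log2 fold changes by condition of 0.26, 0.24 and 0.22. RHOA had -0.18 by number and -0.19 by condition. Without control replicate 1 or without miR-124 replicate 2 the log2 fold change of RHOG on its brighter probe set turned to -0.03 and -0.07.

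Among the genes of the cell cycle and transcription, CDK6, a kinase that D cyclins activate in G1 phase and that lymphoid cells use, was bright on all 4 probe sets, from 11.66 to 12.35. The brightest (11723241_at) read 12.26 and 12.11 in control cells and 12.24 and 12.35 in miR-124-transduced cells, a log2 fold change of 0.11 (standard error 0.10, interval -0.16 to 0.38). The others had log2 fold changes of -0.09, -0.06 and 0.05, and on CDK6 probe set 11723243_at both miR-124 arrays lay below both controls, with 11.87 and 11.75 in control cells and 11.74 and 11.69 in miR-124-transduced cells. The 4 probe sets thus lay within 0.11 of no difference on either side. CDK4, the other G1 kinase of D cyclins, read 12.84 and 12.79 in control cells and 13.01 and 12.99 in miR-124-transduced cells, a log2 fold change of 0.18. CCND2, a D cyclin that partners both kinases, read 14.07 and 14.04 against 14.03 and 14.07, with overlap.

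SNAI2 encodes Slug, a zinc finger repressor of epithelial genes. Its only probe set (11744218_at) read 4.26 and 4.01 in control cells and 4.21 and 4.13 in miR-124-transduced cells, under the background throughout, so no fold is given. SNAI1, the founding member of the family, read 6.14 and 6.02 against 6.15 and 5.74, and SNAI3 read 5.13 and 5.64 against 5.46 and 6.10, both with overlap.

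**Figure D2:**
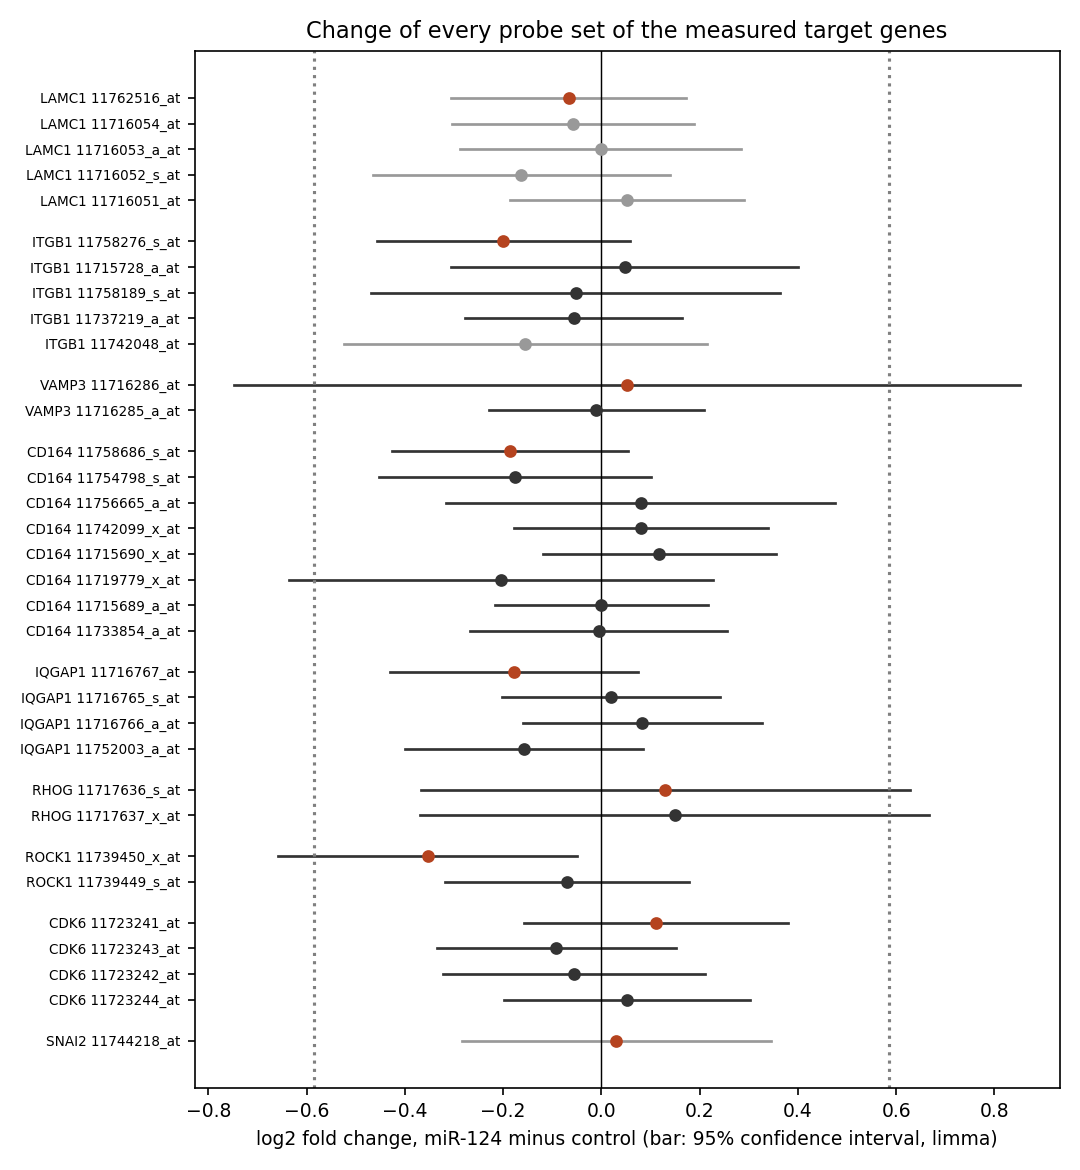
Log2 fold change of all 33 probe sets of the 9 measured genes with the 95% confidence interval from limma (n = 2 arrays per condition), by gene and from bright to dim. The brightest of each gene has a red point, grey bars mark probe sets under the background and dotted lines mark a fold change of 1.5, which no point reaches, and the interval of ROCK1 11739450_x_at alone leaves out 0.

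The confidence intervals give the size of a fall that these arrays leave room for. They may be too narrow for differences between cultures, since the arrays of 1 condition may be technical repeats. In 23 of the 26 probe sets above the background the lower end of the interval lay above a 1.5-fold fall, and 32398 of all 37646 probe sets above the background had this property. The other 7 probe sets, 5 of LAMC1, 1 of ITGB1 and that of SNAI2, lay under the background, where a fall could not show. The exceptions were the brightest probe sets of VAMP3 and ROCK1, with lower ends at -0.75 and -0.66, and CD164 probe set 11719779_x_at, at -0.63. For ITGB1, IQGAP1 and the brightest probe set of CD164 the lower ends were -0.46, -0.43 and -0.43, so falls of up to about these sizes are within the intervals. In RNA pooled from many cells, a strong fall in some cells and a weak fall in all cannot be told apart.

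Both miR-124 arrays lay below both control arrays on 9 of the 33 probe sets and above them on 1. Of all probe sets, 15.9% were lower and 18.8% higher in this sense. The 9 probe sets belong to LAMC1, ITGB1, CD164, IQGAP1, ROCK1 and CDK6. On the brightest probe sets alone, 5 of 9 genes were lower in both miR-124 arrays, LAMC1 under the background among them, against 15.5% of all genes. On the 24 dimmer probe sets, 4 were lower in this way (16.7%), and of all dimmer probe sets of the arrays 15.7% were. With 1 array left out the count was 13 without control replicate 1, 14 without control replicate 2, 15 without miR-124 replicate 1 and 13 without miR-124 replicate 2, where 27.1%, 32.5%, 36.6% and 31.8% of all probe sets were lower.

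A wider list of genes reported as miR-124 targets in other cells was set beside the set. Of 31 listed genes, 30 had a probe set, and on the brightest 10 were lower and 20 higher, with a median log2 fold change of 0.07 against 0.0056 over all genes. None passed the threshold, and 2 lay lower in both miR-124 arrays (6.67%) and 7 higher (23.3%), where 15.5% of all genes lay lower and 18.7% higher. Over all 110 probe sets of these genes, 29 lay lower in both (26.4%) and 19 higher (17.3%), beside 15.9% and 18.8% of all probe sets, with a median of -0.0090. The brightest genes of the list were VIM, the intermediate filament vimentin, CDK4, and EZH2, the methyltransferase of polycomb repressive complex 2. VIM read 14.13 and 14.15 in control cells and 14.14 and 14.14 in miR-124-transduced cells, and EZH2 read 13.10 and 13.08 against 13.08 and 13.12. PTBP1, the splicing repressor that miR-124 lowers in developing neurons, read 11.68 and 11.61 against 11.78 and 11.72, higher in both miR-124 arrays. ELK3, an ETS-family repressor, read 7.70 and 7.70 against 7.45 and 7.43. On the brightest probe sets, ELK3 had the lowest log2 fold change of the wider list (-0.26, unadjusted p = 0.023 and adjusted p = 0.886 from limma). The lowest over all 110 probe sets was -0.36. PTBP1 and ELK3 were named after their values were seen.

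Of 50 genes of the same families or pathways as the members, 46 had a probe set, 28 were higher and 18 lower, the median was 0.04, and none passed the threshold. Both miR-124 arrays were below the controls for 4 of them (8.70%) and above for 6 (13.0%), beside 15.5% and 18.7% of all genes. Without miR-124 replicate 1, SNAI3 and VAMP8 passed it, at log2 fold changes of 0.72 and 0.86, and both were higher on the arrays numbered 2, by 0.57 and 0.78. The same array numbers therefore moved with these values, and their part was not tested.

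**Figure D3:**
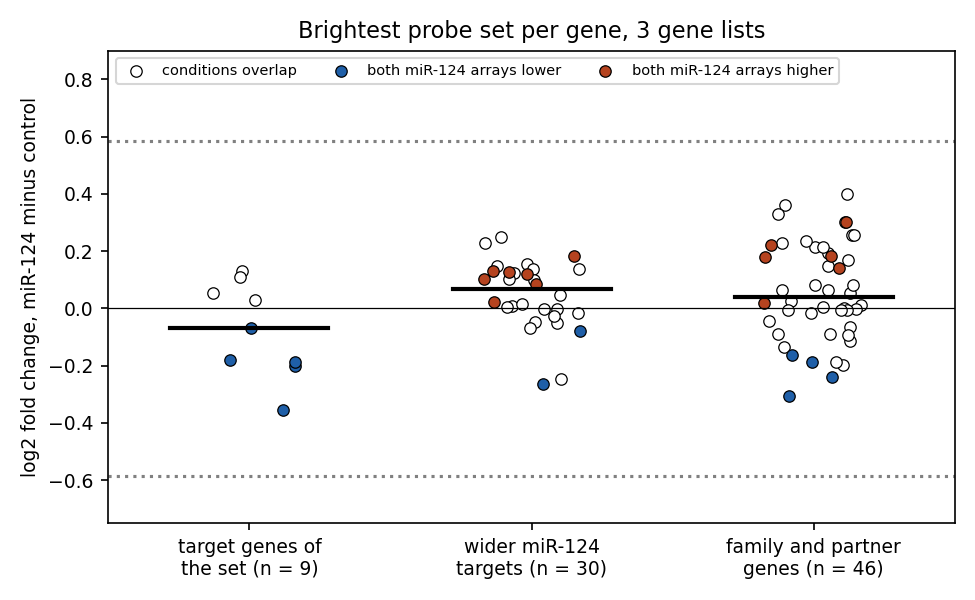
Log2 fold change between miR-124-transduced and control cells on the brightest probe set of each gene for the 9 measured targets, the 30 wider targets and the 46 family and partner genes, with bars at the medians (-0.07, 0.07 and 0.04) and dotted lines at a fold change of 1.5. Blue and red points mark genes whose conditions did not overlap, and no point reaches a dotted line. The median of the 9 measured targets is the value of LAMC1, which lies under the background.

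Summed over the 33 probe sets, the array number took more of the variance than the condition, and large differences weigh most in such a sum. The median size of the difference was near equal, 0.080 by condition and 0.085 by number. Of the variance of the 33 probe sets over the 4 arrays, the condition took 27.7%, the array number (1 or 2) 56.0% and the remaining contrast 16.3%. Over all probe sets these shares were 28.2%, 58.0% and 13.8%. On 17 of the 33 probe sets (51.5%) the difference by number was larger than that by condition, as it was on 54.9% of all probe sets. On the brightest probe sets this held for 3 of 9 genes and for 55.5% of all genes. The brightest probe set of VAMP3 was higher on the arrays numbered 2 by 0.59, RHOG by 0.36, and 2 dimmer probe sets of ITGB1 by 0.22 and 0.26. ROCK1 was lower on the arrays numbered 2 by 0.17 on its brightest probe set, in addition to its difference by condition. For ITGB1, CD164 and IQGAP1, the differences by number on the brightest probe sets were 0.11, -0.08 and -0.10, smaller in size than those by condition.

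**Figure D4:**
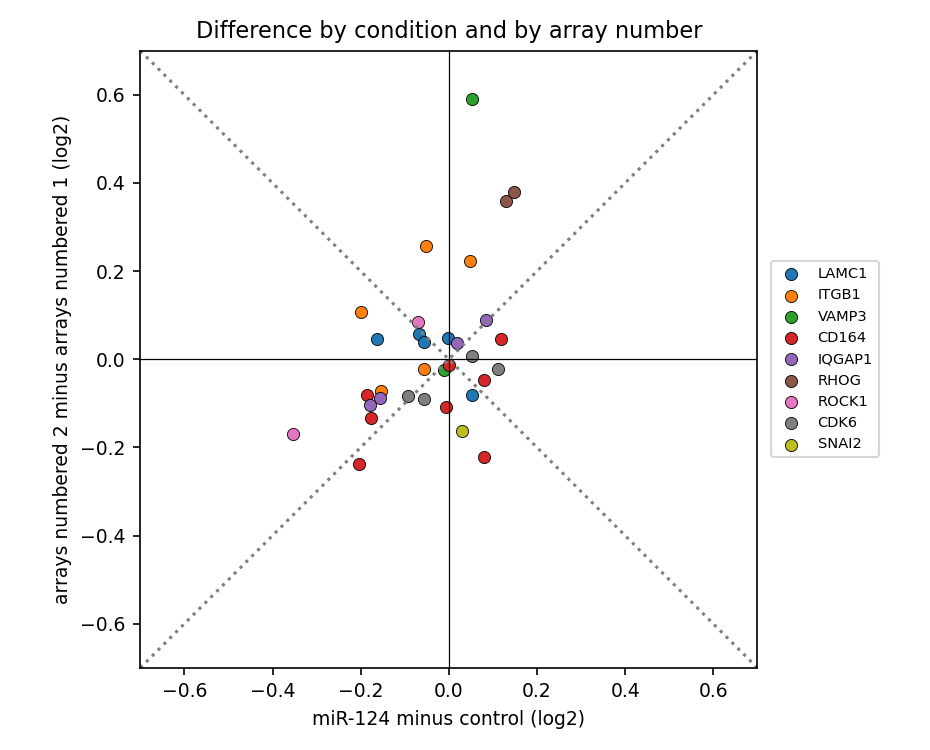
Difference between the conditions (x axis) and between the arrays numbered 2 and 1 (y axis) on the log2 scale for the 33 probe sets, coloured by gene. Points between the dotted diagonals and the vertical axis line differ more by array number than by condition, as VAMP3 at 0.59 and RHOG at 0.36 and 0.38 do, while ROCK1 lies farthest to the left at -0.35.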

How the data were processed

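RNA of SeAx cells was measured on 4 PrimeView arrays, 2 of control cells and 2 of miR-124-transduced cells, grouped by the sample titles. The authors deposited log2 values after background correction, quantile normalization and RMA (RMA and limma are given, with no version, in the submitters' processing notes). Quantile normalization hides a change of total RNA, so differences are relative to the other genes. Of 49495 probe sets, 202 array controls were left out. Genes were named by the platform annotation, in which 45278 tested probe sets had 1 symbol, 1333 several and 2682 none. The members and lists were chosen with earlier results of these data known.

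Differences were fitted in R 4.3.3 by limma 3.58.1 (functions lmFit and eBayes, with condition as the only term, 2 residual degrees of freedom) over all probe sets, and over 18244 genes, each on its brightest probe set (highest mean over the arrays). Values of single probe sets of the members come from the first fit, counts of genes and values of other genes from the second. The fitting code was checked on simulated data with larger differences than those of the members and with no effect of array number. All members were named with every probe set, and of the other lists the genes past the threshold (none), the 3 brightest and the closest family gene of each member, with exceptions marked. Alternatives were a fit blocked on array number, each array left out in turn, a filter on dim probe sets, cyclic loess, another prior, array weights and averaging over a gene's probe sets. Target sites and microRNA sequences were not used here, and no coordinates are given, since the arrays name no genome build.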

Additional observations from a re-analysis of the deposited data

How the results depend on the processing

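No probe set and no gene of the set, and no gene of the wider target list, passed the study's threshold under any alternative, each array left out included. The count of family and partner genes past it was 0, and 0 to 2 with 1 array left out. The median log2 fold change of the 33 probe sets was -0.010, -0.040 after cyclic loess, and -0.053 to -0.0090 with 1 array left out. That of the 9 genes was -0.07, which is the value of LAMC1. For genes at or above the median level, which leaves out LAMC1 and SNAI2, the median was -0.18. It was -0.037 when a gene's probe sets were averaged, and -0.131 to -0.0663 with 1 array left out. The count of probe sets lower in both miR-124 arrays was 9 and was 13 to 15 with 1 array left out, since fewer arrays then have to be separated. VAMP3 and RHOG, higher on average in the miR-124 arrays, turned negative with 1 array left out, over ranges of -0.34 to 0.44 and -0.0720 to 0.33. For SNAI2, under the background on every array, the difference ran from -0.10 to 0.16 and has no direction to read. The other genes above the background kept their direction under every alternative. LAMC1, under the background, has no direction to read either. With a block for the array number, which changed no direction and no side of the threshold, the unadjusted p of ROCK1 was 0.0066 and that of ITGB1 0.048 at the gene level. Same-numbered arrays deviated together (correlation 0.64 over all probe sets), but no source says that the number pairs the samples. Precision is limited by the small number of arrays.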
